A study of Sus scrofa with 2 samples.

Results

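The elastic fibre and microfibril genes described here are 8 of the 21301 features counted in pig muscle: ELN, FBN1, FBLN2, FBLN5, EFEMP1, MFAP4, MFAP5 and LOX. They were taken by their symbols in the feature list, each of which named a single feature. Earlier results of these data were known when they were chosen. Raw UMIs (unique molecular identifiers, 1 per captured RNA molecule) of each gene were summed over cell classes and stromal states gated on marker genes, and none of the 8 genes served in a gate.

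A GDSS and a Yorkshire library were compared. The GDSS library came from longissimus dorsi, the long back muscle, of Guangdong small-eared spotted piglets. The Yorkshire library came from the same muscle of Yorkshire piglets. No treatment, allele or transgene is named for either group, and both carry the cell label intramuscular vascular stem cells (IVSC). The titles say P0, whose meaning is not given in the sources used here, nor is the number or sex of the piglets. Each breed had 1 library, so nothing was tested, and breed cannot be told apart from animal, preparation and library.

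Elastic fibres give skin, vessels and the connective tissue of muscle their recoil. They have a core of cross-linked elastin laid down on a scaffold of fibrillin microfibrils. Fibulins and microfibril-associated glycoproteins sit on the microfibrils or between them and elastin, and lysyl oxidase links the elastin chains. In muscle such matrix is made mainly by fibroblasts and fibro-adipogenic progenitors, with vessel wall and tendon cells as further sources.

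The 11050 GDSS and 13613 Yorkshire cells kept had median depths of 2930 and 3060 UMIs. The classes held 8042 and 2135 stromal cells, 338 and 3531 myogenic cells, 43 and 312 myofibre cells, 197 and 1510 endothelial cells, 301 and 736 mural cells, 266 and 273 glia, and 236 and 79 macrophages. Myogenic, endothelial and glial markers were thus found in many cells under the IVSC label. In GDSS 7.70% and in Yorkshire 28.4% of kept cells fell in no class, and 7.02% and 8.59% reached the markers of more than 1. Cell barcodes present in both libraries numbered 47. The exclusive stromal states were cells with a UMI of PI16 (904 and 141 cells), MME (945 and 182), FMO1 (261 and 414) or both THBS4 and KERA (556 and 341). Tendon cells, taken as stromal cells with at least 2 UMIs of the tendon gene TNMD, made up 301 of the 556 and 208 of the 341 THBS4+KERA cells.

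Levels are given as CPM, the UMIs of a gene per 1000000 UMIs of the cells summed, first for GDSS and then for Yorkshire. Intervals in brackets are exact 95% intervals, Poisson for a level, conditional binomial for a ratio of levels and Clopper-Pearson for a share of cells. They hold the error of counting and no spread between animals. Levels of different genes are not compared, since the counts are not per length.

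The first question was which cells held these transcripts. Of the 8 genes, 7 had their highest class level in stromal cells in both libraries, where 6.25% of the 11592 genes ranked over the classes did so. The exception was ELN, whose stromal and mural levels overlapped. In GDSS, stromal cells were 72.8% of kept cells and held between 86.5% (ELN) and 91.8% (FBLN5) of each gene's UMIs. In Yorkshire they were 15.7% of kept cells and held from 27.4% (FBLN2) to 77.8% (MFAP5). Of the UMIs of all genes, stromal cells held 28617201 of 40139588 in GDSS and 9118028 of 51674434 in Yorkshire.

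**Figure D1:**
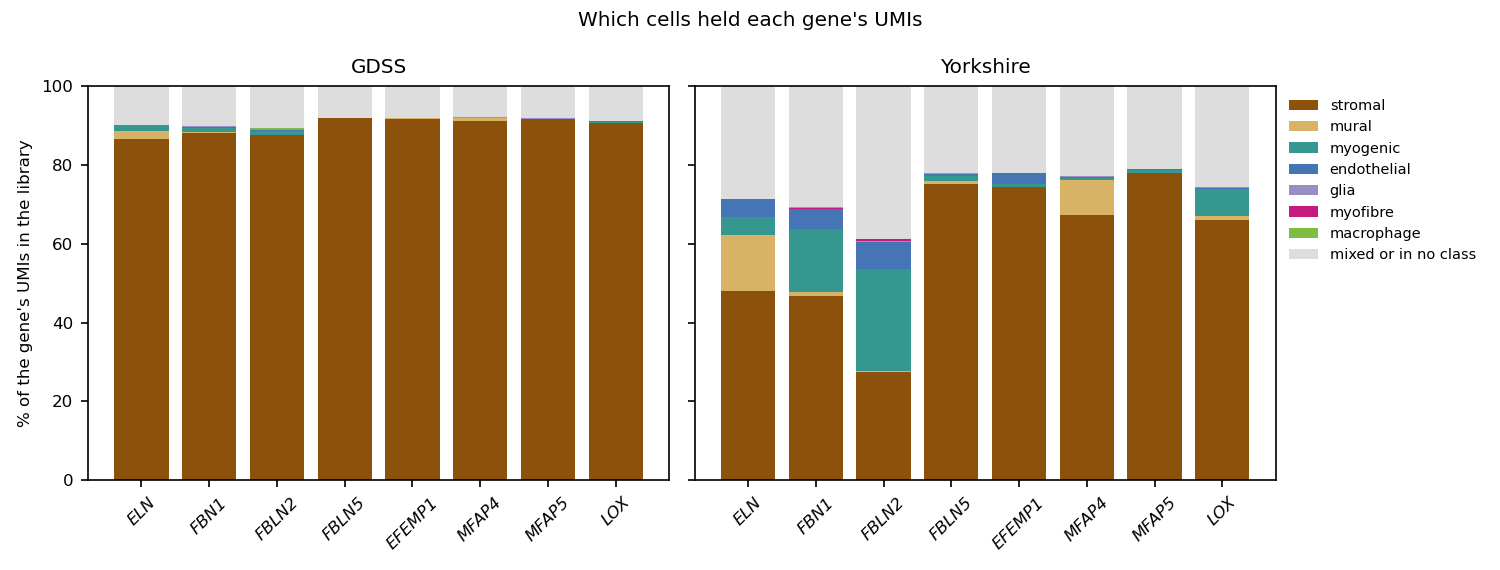
Share of each gene's UMIs in the kept cells of a library (vertical axis, %) that lay in each marker-gated class (colours), with cells of several classes or none in grey. Stromal cells held 87.6% of the GDSS and 27.4% of the Yorkshire UMIs of FBLN2, and myogenic cells held 25.9% of it in Yorkshire. The grey part of FBLN2 in Yorkshire was larger than either of these 2 classes.

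FBN1, which encodes fibrillin-1, the main microfibril subunit, stood at 148 CPM (143 to 152) in GDSS and 365.1 CPM (353 to 378) in Yorkshire stromal cells. Myogenic cells, marked by genes of satellite cells and myoblasts, came next at 46.8 CPM (33.9 to 63.1) and 92.1 CPM (86.8 to 97.6). Endothelial cells followed at 22.0 CPM (12.0 to 36.9) and 55.9 CPM (50.3 to 62.0). The order stromal, myogenic, endothelial was the same in both libraries, and the stromal level was 3.15-fold (2.34 to 4.36) and 3.97-fold (3.71 to 4.25) the myogenic level.

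RNA released from broken cells also reaches droplets. The level this would give was estimated from DCN and LUM, stromal transcripts found at low levels in every class. The estimate is too high where a class makes them itself. It can also be too low, since both genes enter the stromal gate and cells that reached this gate and another were left out. The other classes were thereby selected for few stromal markers, which can raise multiples of the estimate. The size of this effect was not tested, so the multiples alone do not tell a class's own transcripts from free RNA. For FBN1 the myogenic level was 37.5 and 35.0 times that estimate and the endothelial level 23.9 and 25.6 times. Macrophages, by contrast, held 1 and 2 FBN1 UMIs, 0.661 and 1.77 times the estimate.

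MFAP5 (also called MAGP2) encodes a small glycoprotein bound to fibrillin. It stood at 3246 CPM (3225 to 3267) in GDSS and 2471 CPM (2439 to 2504) in Yorkshire stromal cells. At least 1 UMI was found in 90.7% and 80.7% of stromal cells and in 13.1% and 7.59% of macrophages, which had median depths of 6076.5 and 7360 UMIs against 3044.5 and 3735 in stromal cells. With each cell thinned to 1500 UMIs the shares were 86.2% and 73.4% in stromal cells against 3.004% and 2.53% in macrophages. Thinning left out 500 and 83 stromal cells, 3 GDSS macrophages and 0 Yorkshire macrophages. In myogenic cells MFAP5 was at 27.2 and 17.2 CPM, 1.03 and 1.61 times the free RNA estimate, and in endothelial cells at 1.85 and 1.30 times. Over the other classes the MFAP5 level ran from 0.482 to 2.55 times the estimate, at or near background.

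MFAP4 encodes a fibrinogen-related microfibril protein that binds elastin and fibrillin. Its stromal level was 1452 CPM (1438 to 1466) in GDSS and 769 CPM (751 to 787) in Yorkshire. Mural cells, the contractile cells of vessel walls, came next at 478 CPM (430 to 530) and 378 CPM (354 to 403). Split by MYH11, the myosin of smooth muscle, the level was 780.1 CPM (691 to 877) and 378 CPM (348 to 409) in smooth muscle cells. In pericytes, RGS5 cells without MYH11, it was 64.8 CPM (40.6 to 98.1) and 122 CPM (96.2 to 152). Smooth muscle thus exceeded pericytes 12.0-fold (7.79 to 19.5) and 3.11-fold (2.45 to 3.98), and stood at 61.8 and 101 times the free RNA estimate. In GDSS pericytes MFAP4 was 1.99 times that estimate, near background, and in Yorkshire 20.5 times. Mural cells with neither MYH11 nor RGS5 UMIs were in neither group. In Yorkshire the whole mural level matched that of smooth muscle cells although pericytes stood lower, so the remaining mural cells stood above smooth muscle. Their own level was not read out in either library.

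ELN, the elastin gene, was scarce, with 122 and 84 UMIs in all stromal cells. That gave 4.26 CPM (3.54 to 5.09) in GDSS and 9.21 CPM (7.35 to 11.4) in Yorkshire, and 1.48% (1.23 to 1.77) and 3.56% (2.82 to 4.44) of stromal cells had a UMI. Mural cells held 3 and 25 ELN UMIs, or 3.97 CPM (0.820 to 11.6) and 10.1 CPM (6.55 to 14.9). The ratio of stromal over mural was 1.07 (0.359 to 5.27) in GDSS, and that of mural over stromal 1.098 (0.673 to 1.73) in Yorkshire, so the order of the classes was not resolved at this depth. Within mural cells all 3 GDSS UMIs and 21 of the Yorkshire UMIs lay in MYH11 cells, and pericytes held 0 and 1. ELN was not detected in macrophages, where the limit for a count of 0 (3 counts) is 1.82 and 4.899 CPM. In glia, too, it had 0 UMIs in both libraries.

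FBLN5 encodes fibulin-5, which tethers elastin to microfibrils and to cells. It stood at 427 CPM (420 to 435) in GDSS and 306 CPM (294 to 317) in Yorkshire stromal cells, 20.2-fold (12.4 to 35.3) and 29.0-fold (19.8 to 44.6) the mural level. EFEMP1 (fibulin-3) stood at 226 CPM (221 to 231.7) and 184 CPM (175 to 193). EFEMP1 in myogenic cells was at 0.593 and 1.56 times the free RNA estimate, and FBLN5 at 0.314 and 2.62 times. In mural cells, FBLN5 was at 3.46 and 7.14 times it. EFEMP1 also had a set of UMIs in arterial cells. In Yorkshire endothelial cells EFEMP1 was at 9.50 CPM (7.26 to 12.2), and 50 of its 61 UMIs lay in the 202 arterial cells (at least 2 of GJA5, SEMA3G, DLL4, HEY1 and BMX). EFEMP1 stood at 38.3 CPM (28.4 to 50.5) in arterial and 2.15 CPM in other Yorkshire endothelial cells, a ratio of 17.8 (9.15 to 37.9). This rests on fewer UMIs than the minimum of 100 used for the counts given further on, and 68.0% of the arterial UMIs came from 10 cells. GDSS had 17 arterial cells, with 0 EFEMP1 UMIs, too few to say more.

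FBLN2 (fibulin-2), which binds fibrillin, elastin and basement membrane proteins, had sizeable levels in several classes. Stromal cells had 257 CPM (252 to 263) in GDSS and 189 CPM (180 to 198) in Yorkshire. Myogenic cells had 91.5 CPM (73.0 to 113) and 133 CPM (127 to 139.5), so the stromal excess was 2.81-fold (2.27 to 3.53) and 1.42-fold (1.33 to 1.52). FBLN2 was found in 19.5% and 31.5% of myogenic cells and in 1.69% and 1.27% of macrophages. The myogenic level was 41.8 and 57.1 times the free RNA estimate and the endothelial level 24.3 and 34.5 times. FBLN2 in macrophages, at 2.43 and 1.63 CPM, was 1.505 and 1.003 times it.

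LOX, the lysyl oxidase that starts the cross-links of elastin and collagen, stood at 264 CPM (258 to 270) in GDSS and 579 CPM (563 to 594) in Yorkshire stromal cells. Myogenic cells had 25.0 CPM (15.9 to 37.6) and 45.3 CPM (41.6 to 49.2), 11.5 and 15.3 times the free RNA estimate. Smooth muscle cells had 30.5 CPM (15.2 to 54.6) and 28.3 CPM (20.7 to 37.9). Endothelial cells, at 1.57 and 3.89 CPM, were at 0.980 and 1.59 times the estimate for LOX.

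**Figure D2:**
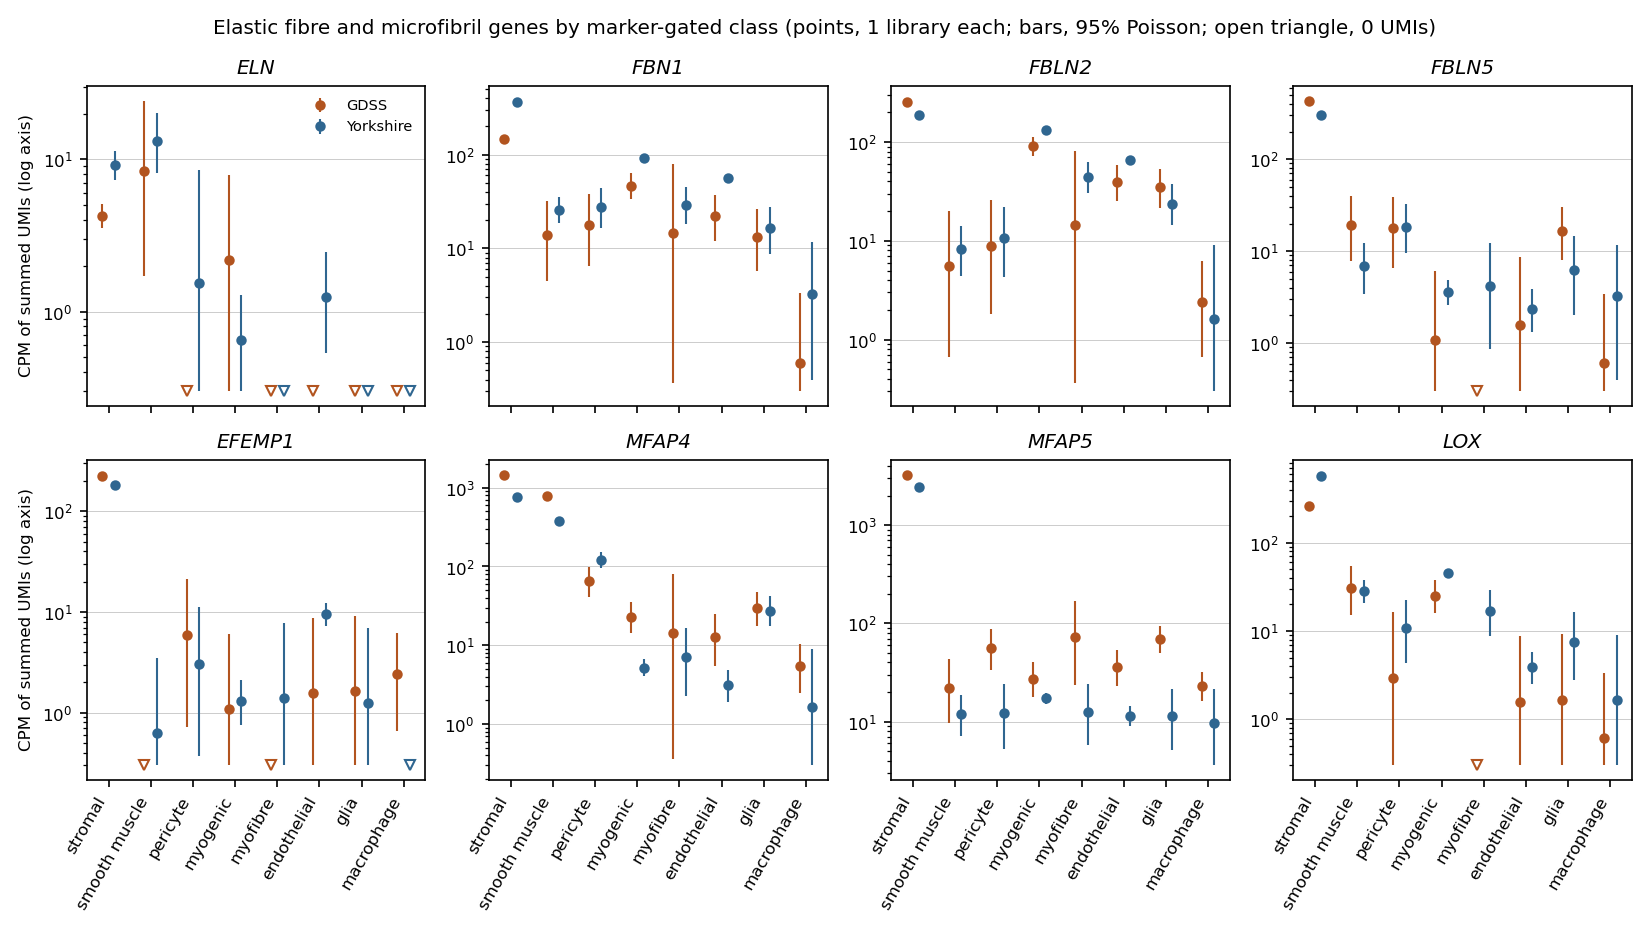
Level of each gene (CPM of summed UMIs, log axis) by marker-gated class, with mural cells split into smooth muscle cells and pericytes. Points are 1 library each, bars are 95% Poisson intervals cut at 0.3 CPM, and open triangles at 0.3 CPM stand for 0 UMIs. Mural cells with neither MYH11 nor RGS5 are not drawn. Among the groups drawn, stromal cells were highest for all but ELN. MFAP4 in smooth muscle (780.1 and 378 CPM) was the nearest approach of another drawn group after FBLN2 in Yorkshire myogenic cells.

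The second question was how the genes were shared out among stromal states. Each state was set against all other stromal cells of its library. These included cells in no state (5077 of 8042 GDSS and 836 of 2135 Yorkshire stromal cells) and in more than 1 (299 and 221). Cells in no state had median depths of 2758 and 3221 UMIs, against 2928 to 5041.5 in the GDSS states and 3189.5 to 5444 in the Yorkshire states. Some may belong to a state whose gene was missed, and their part in the ratios was not tested. A gene was counted where the levels were at least 1.5-fold apart in the same direction in both libraries, with at least 100 UMIs over the cells compared. ELN, with 84 stromal UMIs in Yorkshire, could not be counted, which leaves 7 genes. PI16 cells had 3 of the 7 higher and 0 lower, beside 3.04% and 1.53% of the 6941 genes measured. THBS4+KERA cells had 1 of the 7 higher and 5 lower, beside 4.05% and 19.8%. MME cells had 0 higher and 1 lower (1.66% and 2.56% of genes), and FMO1 cells 0 higher and 1 lower (0.490% and 2.38%). An earlier clustering of these cells had already placed FBLN2 beside PI16, so FBLN2 in PI16 cells is not independent of what was known when the genes were chosen.

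PI16 marks the least committed fibroblasts, which lie around vessels and in fascia. FBN1 stood at 323 CPM (305 to 341) in GDSS PI16 cells and 120.3 CPM in the other stromal cells, a ratio of 2.68 (2.51 to 2.87). In Yorkshire it stood at 1094 CPM (1017 to 1176) against 307 CPM, a ratio of 3.57 (3.28 to 3.87). In both libraries the PI16 level of FBN1 was the highest of the 4 states, and those of MME and FMO1 cells did not differ beyond counting error (1.16-fold, 0.942 to 1.45, and 1.03-fold, 0.885 to 1.21). Of the Yorkshire FBN1 UMIs in PI16 cells, 44.2% came from 10 of the 141 cells. Without the 10 highest cells on each side, the log2 ratio was 1.34 in GDSS and 1.33 in Yorkshire, against 1.42 and 1.83.

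FBLN2 was also highest in PI16 cells, and its FMO1 level exceeded the MME level 1.39-fold (1.19 to 1.62) and 1.37-fold (1.11 to 1.72). It stood at 590.1 CPM (566 to 615) in PI16 cells against 206 CPM in the other stromal cells of GDSS, 2.87-fold (2.73 to 3.02). In Yorkshire it was at 408 CPM (361 to 459) against 171 CPM, 2.39-fold (2.09 to 2.71), and without the 10 highest cells on each side the Yorkshire log2 ratio was 0.72 against 1.25. MFAP5 was at 5791 CPM (5715 to 5868) against 2850 CPM in GDSS, 2.03-fold (2.002 to 2.06). In Yorkshire MFAP5 was at 5405 CPM (5231 to 5583) against 2236 CPM, 2.42-fold (2.33 to 2.50). PI16 cells had the highest FBLN2 and MFAP5 levels of the 4 states in both libraries.

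EFEMP1 followed in GDSS only past the threshold. Its ratio in PI16 cells was 2.04 (1.93 to 2.16) in GDSS and 1.40 (1.19 to 1.64) in Yorkshire, and the difference between the libraries was not tested. Of the Yorkshire EFEMP1 UMIs in PI16 cells, 47.9% came from 10 of the 141 cells, and without the 10 highest cells on each side the Yorkshire log2 ratio was −0.21. FBLN5 in PI16 cells was at 1.17-fold (1.12 to 1.23) and 1.00-fold (0.865 to 1.15) the other stromal cells, and MFAP4 at 1.11-fold (1.08 to 1.14) and 0.907-fold (0.824 to 0.995). LOX was at 0.951-fold (0.888 to 1.02) and 0.665-fold (0.586 to 0.753). The scaffold genes FBN1 and MFAP5 and the fibulin FBLN2 were thus past 1.5-fold in PI16 cells in both libraries, while FBLN5, MFAP4 and LOX were not higher by that much in either.

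THBS4 and KERA, which encode a matricellular protein of tendon and a small leucine-rich proteoglycan, marked cells with the opposite profile. LOX stood at 762 CPM (731 to 793) there against 203 CPM in the other GDSS stromal cells, 3.76-fold (3.58 to 3.95). In Yorkshire LOX stood at 1256 CPM (1208 to 1306) against 384 CPM, 3.27-fold (3.1 to 3.46). ELN was also at its highest there, at 10.2 CPM (6.99 to 14.4) from 32 UMIs and 23.6 CPM (17.4 to 31.3) from 48 UMIs. The ELN ratio to the other stromal cells was 2.89 (1.87 to 4.38) in GDSS and 4.64 (2.95 to 7.36) in Yorkshire, the latter under the UMI minimum.

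The fibulins and the scaffold genes were low in the same cells. EFEMP1 stood at 31.9 CPM (26.0 to 38.9) against 250.0 CPM in GDSS, 7.83-fold lower (6.42 to 9.63). In Yorkshire EFEMP1 had 14 UMIs in THBS4+KERA cells, 6.88 CPM (3.76 to 11.5) against 234 CPM, 34.1-fold lower (20.2 to 62.5). FBLN2 was 3.51-fold (3.09 to 3.9997) and 11.8-fold (8.63 to 16.4) lower. MFAP5 was 2.69-fold (2.60 to 2.77) and 5.65-fold (5.32 to 6.02) lower, FBN1 2.58-fold (2.23 to 2.997) and 4.69-fold (4.06 to 5.46) lower, and FBLN5 2.73-fold (2.50 to 2.99) and 3.19-fold (2.79 to 3.67) lower. MFAP4 was level with the other stromal cells, at 1.05-fold (1.02 to 1.08) and 1.06-fold (0.9995 to 1.12).

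Tendon cells moved with this state, so its cells with 0 TNMD UMIs were also set against all other stromal cells, a split added after the data were seen. These were 234 and 111 cells. MFAP4 was then 1.72-fold (1.65 to 1.79) and 1.71-fold (1.58 to 1.85) higher, and LOX 1.91-fold (1.74 to 2.10) and 1.76-fold (1.60 to 1.92) higher, than in the other stromal cells. EFEMP1 was still 2.98-fold (2.38 to 3.77) and 9.52-fold (5.31 to 19.1) lower. FBLN5 was at 0.840-fold (0.755 to 0.933) and 1.04-fold (0.885 to 1.21), and MFAP5 at 1.03-fold (0.9988 to 1.07) and 0.754-fold (0.708 to 0.803). FBLN5 and MFAP5 were thus within 1.5-fold in the cells without TNMD, though FBLN5 was still lower in GDSS and MFAP5 in Yorkshire, and FBLN2 and FBN1, at 1.25-fold lower in GDSS, were past 1.5-fold only in Yorkshire (2.94-fold and 2.07-fold lower).

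The TNMD cells themselves, 361 and 236 in number, held LOX at 858 CPM and 1358 CPM and ELN at 8.31 and 26.1 CPM. MFAP5 stood at 340 CPM and 43.3 CPM there, 10.3-fold (9.65 to 11.1) and 68.7-fold (54.1 to 88.4) under the other stromal cells. FBLN2 was at 21.6 and 5.10 CPM and EFEMP1 at 21.2 and 2.55 CPM. Stromal cells with at least 2 of the nerve sheath genes CLDN1, ITGB4, MPZL2, KRT8 and KRT18 numbered 52 and 103. In GDSS kept cells KRT8 had 0 UMIs, KRT18 4 and MPZL2 40, so the name is weaker there. Cells of this gate kept MFAP5 at 2748 and 3567 CPM. They held MFAP4 at 277 and 55.4 CPM, 5.27-fold (4.13 to 6.83) and 14.7-fold (10.4 to 21.6) under the other stromal cells. MFAP5 was thus low in tendon cells and not in cells of the nerve sheath gate. FBLN2 was low in both, at 81.1 and 20.8 CPM in the latter.

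MME, a surface peptidase, and FMO1, a flavin monooxygenase, marked states in which LOX was low. LOX stood at 147 CPM (134 to 161) and 283 CPM (243 to 328) in MME cells, 1.89-fold (1.72 to 2.08) and 2.12-fold (1.83 to 2.47) under the other stromal cells. In FMO1 cells LOX stood at 147 CPM (124 to 173) and 280.4 CPM (255 to 308), 1.82-fold (1.54 to 2.16) and 2.29-fold (2.08 to 2.53) under them. Without the TNMD cells the GDSS log2 ratio of LOX was −0.52 in FMO1 cells, against −0.86, and with cells thinned to 1500 UMIs it was −0.38, both under 1.5-fold. The LOX levels of the MME and FMO1 states did not differ beyond counting error in either library. FBLN5 had its highest level in MME cells, at 533 CPM (508 to 559) and 438 CPM (388 to 492), but in Yorkshire this was 1.13-fold (0.980 to 1.31) the FMO1 level and unresolved. EFEMP1 was higher in FMO1 cells in Yorkshire alone, at 292 CPM against 161 CPM in the other stromal cells (1.82-fold, 1.63 to 2.03), where GDSS gave 1.02-fold (0.891 to 1.17), and the difference was not tested.

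**Figure D3:**
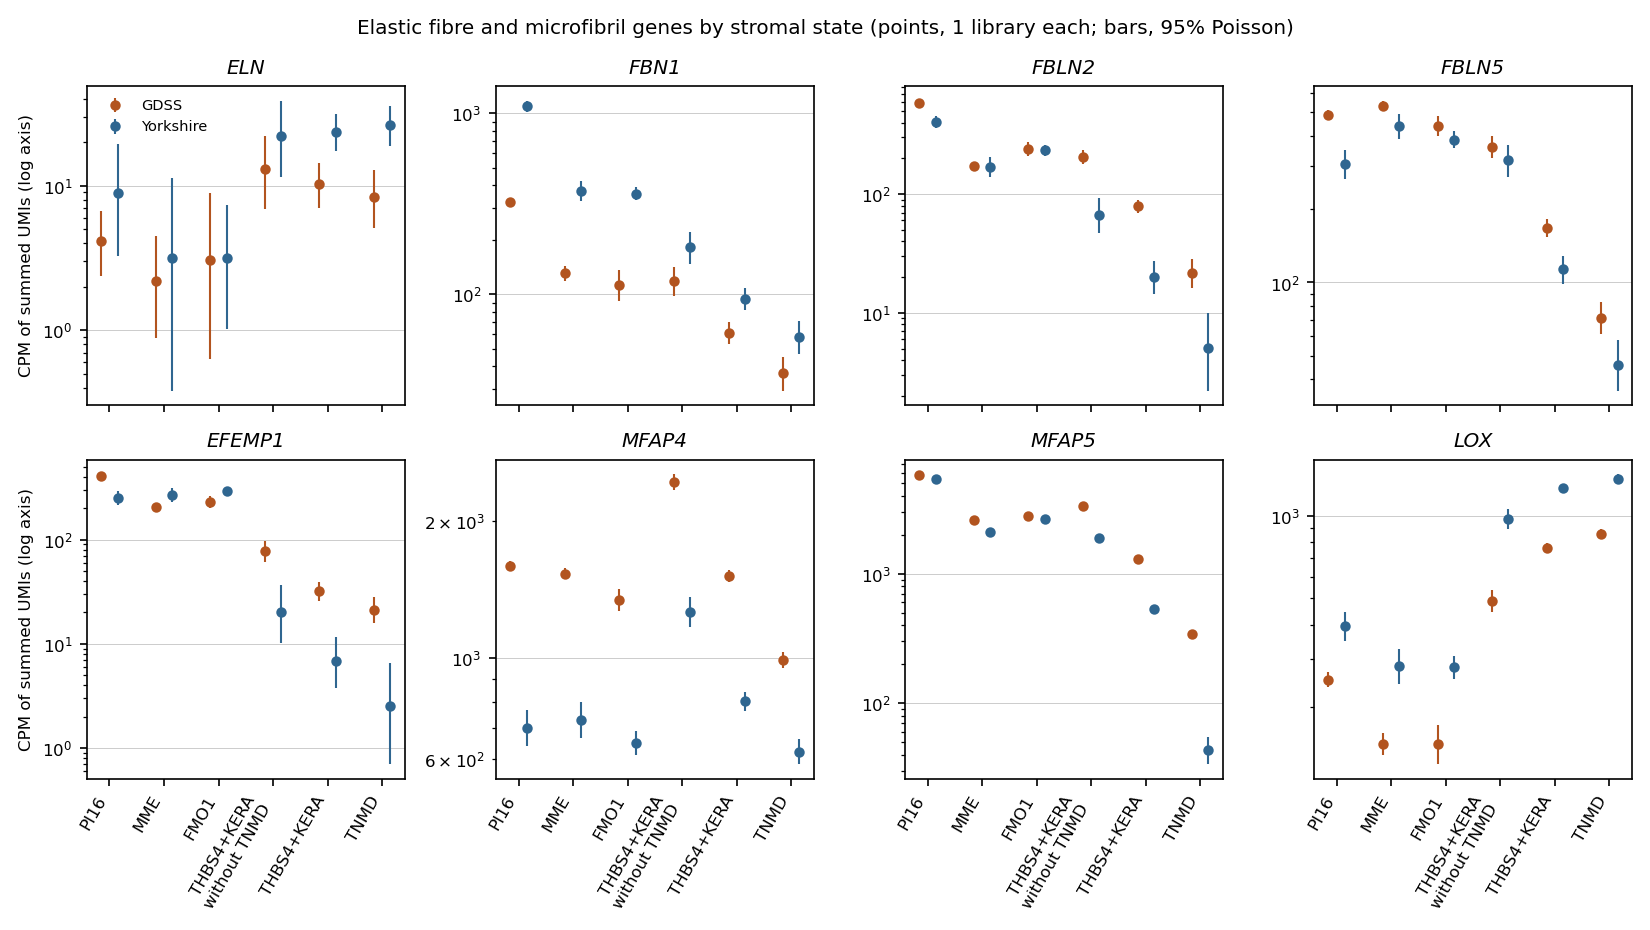
Level of each gene (CPM of summed UMIs, log axis) in the stromal states, with the THBS4+KERA state shown whole and for its cells with 0 TNMD UMIs, and stromal cells with at least 2 TNMD UMIs at the right. Points are 1 library each and bars 95% Poisson intervals. FBN1, FBLN2 and MFAP5 peak in PI16 cells and drop toward TNMD cells, while LOX and ELN are higher in THBS4+KERA and TNMD cells than in PI16 cells, and MFAP4 is highest in THBS4+KERA cells without TNMD (2431 and 1264 CPM).

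Per cell, the members were found together most often in PI16 cells. With every cell thinned to 1500 UMIs, the median stromal cell had UMIs of 3 of the 8 genes in both libraries. At least 4 were found in 53.9% and 41.7% of PI16 cells, against 26.0% and 28.1% of MME cells, 31.5% and 35.4% of FMO1 cells and 19.0% and 10.3% of THBS4+KERA cells. These shares have no interval, and the Yorkshire ones rest on 139 PI16 and 396 FMO1 cells. The Yorkshire median was 3 in PI16, MME and FMO1 cells alike, so the lead of PI16 over FMO1 cells was not resolved there. None of the 8 was found in 94.4% and 94.9% of macrophages.

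The third question was how stromal levels differed between the libraries. In pooled stromal cells 3 of the 8 genes (FBN1, LOX and ELN) were at least 1.5-fold higher in Yorkshire, where 16.0% of the 10025 genes measured were. MFAP4, 1 of the 8, was at least 1.5-fold higher in GDSS, where 6.75% of genes were. That FBN1 and LOX were higher in Yorkshire stroma was known from earlier results of these data. The median log2 ratio of Yorkshire over GDSS was −0.35 over the 8 genes and 0.13 over all genes. Other scalings moved the median of all genes to −0.07, so ratios relative to it are given as well.

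FBN1 was 2.47-fold (2.36 to 2.59) higher in Yorkshire, from 4224 GDSS and 3329 Yorkshire UMIs. LOX was 2.19-fold (2.12 to 2.27) higher, and ELN 2.16-fold (1.62 to 2.88). Relative to the median gene the log2 ratios were 1.18 for FBN1, 1.01 for LOX and 0.98 for ELN. MFAP4 was 1.89-fold (1.84 to 1.94) higher in GDSS, a relative log2 ratio of −1.04. The other 4 genes stood between 1.23-fold (EFEMP1) and 1.40-fold (FBLN5) higher in GDSS by total UMIs. With TMM or median-of-ratios scaling FBLN2, FBLN5 and MFAP5 also passed 1.5-fold, giving 4 genes higher in GDSS, where 12.5% and 12.4% of all genes then were. Under either scaling the 3 genes higher in Yorkshire were unchanged, where 8.75% and 8.80% of all genes were, and the share of all calls that were higher in Yorkshire went from 70.3% to 41.2% and 41.6%.

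The libraries also differed in tendon and nerve sheath markers within stromal cells. The 3 tendon markers summed to 250.3 CPM in GDSS and 304 CPM in Yorkshire, with SCX at 0.105 and 0.987 CPM, and TNMD cells made up 4.49% and 11.1% of stromal cells. The 5 nerve sheath markers summed to 60.3 and 216 CPM, with KRT8 at 0 in GDSS. Without the cells of both gates the log2 ratio of Yorkshire over GDSS was 1.46 for FBN1, 1.02 for LOX and −0.81 for MFAP4, close to the pooled 1.31, 1.13 and −0.92. For ELN it was 0.67 against 1.11. Without the TNMD cells alone ELN was at 0.55, under 1.5-fold. The 10 mural markers summed to 467 and 286 CPM in stromal cells. TAGLN alone (428 and 222 CPM) set that direction, and MYH11 (0.769 and 3.84 CPM), ACTA2 (4.65 and 19.2 CPM) and NOTCH3 (6.01 and 12.3 CPM) were higher in Yorkshire. The 10 myogenic markers summed to 44.1 and 76.1 CPM, the direction of FBN1 and LOX, with MYOG at 0 in both libraries. Glial markers summed to 469 and 829 CPM, of which ERBB3 gave 463 and 812 CPM and SOX10 0.280 and 0.329 CPM. B cell markers summed to 72.2 and 188 CPM, nearly all CD79A, with MS4A1 at 0 in both. The part of mural, myogenic, glial and B cell RNA in these ratios was not tested.

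Within single states the direction of FBN1, LOX and MFAP4 held in every state. For FBN1 the Yorkshire level was 3.39-fold (3.09 to 3.71) the GDSS level in PI16 cells, 2.84-fold (2.41 to 3.34) in MME cells, 3.197-fold (2.60 to 3.96) in FMO1 cells and 1.54-fold (1.25 to 1.89) in THBS4+KERA cells. For LOX the ratios of Yorkshire over GDSS in the same order were 1.56 (1.36 to 1.79), 1.93 (1.61 to 2.29), 1.91 (1.58 to 2.32) and 1.65 (1.56 to 1.75). For MFAP4 the ratios of GDSS over Yorkshire were 2.27 (2.06 to 2.49), 2.09 (1.90 to 2.31), 2.06 (1.90 to 2.24) and 1.88 (1.78 to 1.995). The background shares past 1.5-fold were 20% (931 of 4662 genes), 15.1%, 14.5% and 8.53% higher in Yorkshire, and 6.76%, 10.1%, 8.71% and 11.1% higher in GDSS.

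In THBS4+KERA cells EFEMP1, FBLN2 and MFAP5 were past 1.5-fold toward GDSS, and differences between states were not tested. EFEMP1 there was 4.64-fold (2.64 to 8.80) and FBLN2 3.95-fold (2.83 to 5.63) higher in GDSS, and MFAP5 2.42-fold (2.27 to 2.59). In MME cells EFEMP1 was at 1.31-fold (1.099 to 1.55) and FBLN2 at 0.986-fold (0.794 to 1.21), Yorkshire over GDSS, and in FMO1 cells they were at 1.27-fold (1.08 to 1.49) and 0.974-fold (0.825 to 1.15). MFAP5 was within 1.22-fold between libraries in the PI16, MME and FMO1 states. TNMD cells made up 54.1% and 61.0% of the THBS4+KERA state, and in its cells without TNMD FBLN2 was still 3.11-fold (2.18 to 4.56) and MFAP5 1.77-fold (1.65 to 1.90) higher in GDSS, where 10.8% of genes were (7.63% in Yorkshire). EFEMP1 was at 3.82-fold (2.02 to 7.96) there, from 89 UMIs, under the minimum. FBLN5 was at 1.49-fold (1.27 to 1.74) toward GDSS in THBS4+KERA cells. In PI16 cells FBLN2 was at 1.45-fold (1.28 to 1.64) toward GDSS, and FBLN5 and EFEMP1 were 1.60-fold (1.38 to 1.85) and 1.62-fold (1.38 to 1.91) higher in GDSS.

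**Figure D4:**
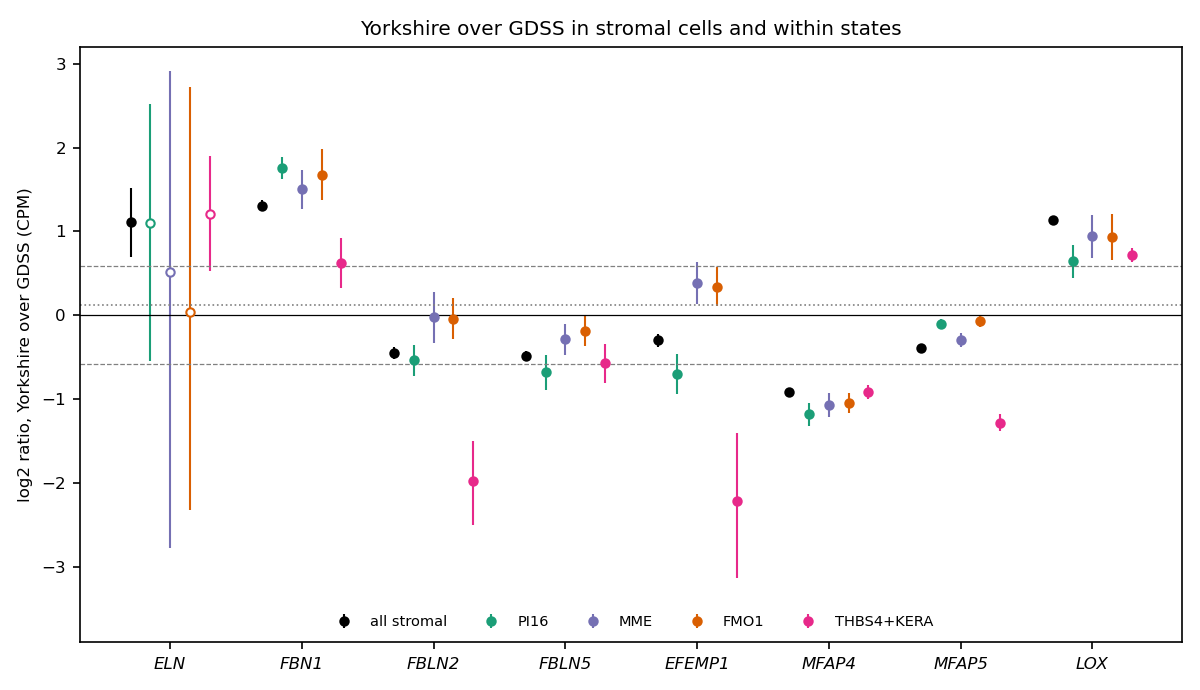
Log2 ratio of Yorkshire over GDSS levels for each gene in all stromal cells and within the 4 states (colours), with 95% conditional binomial intervals. Dashed lines mark 1.5-fold, the dotted line the median of all genes (0.13) and white points ratios from under 100 UMIs. FBN1 and LOX lie above the upper line and MFAP4 below the lower line in every group, and FBLN2, EFEMP1 and MFAP5 lie lowest in THBS4+KERA cells.

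Outside stromal cells few members had 100 UMIs over both libraries. MFAP4 in smooth muscle cells was 2.07-fold (1.79 to 2.38) higher in GDSS, the direction seen in stromal cells (8.33% of genes, and 18.7% higher in Yorkshire), while in pericytes, where GDSS was near background, it was 1.88-fold (1.16 to 3.16) higher in Yorkshire (12.5% of genes, and 11.9% higher in GDSS). FBN1 was 1.97-fold (1.45 to 2.73) higher in Yorkshire in myogenic cells and 2.54-fold (1.49 to 4.69) in endothelial cells, where 23.3% and 16.1% of genes were, with 12.5% and 7.98% higher in GDSS. FBLN2 in those classes was at 1.45-fold (1.17 to 1.83) and 1.69-fold (1.13 to 2.64) its GDSS level, where in stromal cells GDSS was 1.36-fold the higher. LOX was 1.81-fold (1.19 to 2.87) higher in Yorkshire myogenic cells, and MFAP5, near background in them, 1.58-fold (1.001 to 2.40) higher in GDSS.

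The wider pathway was read from 46 other gene names of microfibrils, fibulins, cross-linking, emilins, ADAMTS proteins, elastases, elastin receptors and latent TGF-beta ligands. Of these names 44 were matched in the feature list. ADAMTSL6, not matched, is another name of THSD4, which was matched. The other name not matched was the elastase CTSK, so its level is not known here. In stromal cells 35 were measured, and 1.5-fold was reached by 10 toward Yorkshire and by 4 toward GDSS, with a median log2 ratio of −0.01, beside 16.0% and 6.75% of all genes. Microfibril genes gave 2 higher in Yorkshire of 8: FBN2, the fibrillin of developing tissue, at 15.7 and 52.0 CPM (3.32-fold, 2.91 to 3.79), and MFAP3 at 6.05 and 11.7 CPM. The latent TGF-beta binding genes LTBP1, LTBP3 and LTBP4 stood within 1.06-fold, and LTBP2, also listed, was not counted past 1.5-fold in either direction. Other fibulins gave 2 of 5, FBLN7 (1.83-fold) and HMCN1 (1.58-fold). Of the 4 cross-linking enzymes beside LOX, LOXL3 was 2.23-fold (1.91 to 2.60) higher in Yorkshire and LOXL4 2.09-fold (1.54 to 2.90) in GDSS.

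The ADAMTS and ADAMTS-like genes, whose proteins bind or process fibrillin, had 5 of 8 higher in Yorkshire and 1 in GDSS, with a median log2 ratio of 0.74. ADAMTSL5 (2.10-fold, 1.57 to 2.80) and ADAMTS6 (1.77-fold, 1.14 to 2.70) were higher in Yorkshire and ADAMTSL2 (1.91-fold, 1.41 to 2.64) in GDSS, each under 11 CPM in both libraries. EMILIN1, an elastin-microfibril interface gene, was 1.61-fold higher in GDSS, as was NEU1 (1.63-fold), a sialidase of the elastin receptor complex. Of the 8 elastases listed, only 3 were measured (MMP2, MMP14 and CTSS), with 0 past 1.5-fold in either direction. None of the 3 TGF-beta genes was past 1.5-fold either.

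Between states, 28 of these pathway genes were measured in both libraries. THBS4+KERA cells had 4 higher and 8 lower, where 4.05% and 19.8% of all genes were, so 8 lower is not far above the background. FBLN7, a short fibulin, was 11.6-fold and 4.32-fold higher, TGFB3 2.79-fold and 2.19-fold, FBN2 2.65-fold and 2.23-fold, and LOXL3 1.99-fold and 2.10-fold. LTBP1 was 3.09-fold and 5.91-fold lower, HMCN2 2.13-fold and 2.77-fold, and MMP14 1.81-fold and 2.40-fold. In PI16 cells 2 were higher (ADAMTSL4, at log2 ratios of 1.22 and 0.79, and THSD4, at 0.80 and 0.86) and 3 lower, EMILIN1 among them at −0.86 and −1.27, beside 3.04% and 1.53% of all genes. MME cells had 1 higher (HMCN2, 0.95 and 1.08) and 3 lower, beside 1.66% and 2.56%, and FMO1 cells 0 higher and 3 lower, beside 0.490% and 2.38%. The fibrillin genes FBN1 and FBN2 thus stood apart, with FBN1 lower and FBN2 higher in THBS4+KERA cells in both libraries. In the cells of that state with 0 TNMD UMIs, FBN2 was still 2.33-fold (1.60 to 3.30) and 1.67-fold (1.20 to 2.27) higher than in the other stromal cells, and FBLN7 3.95-fold (2.56 to 5.90) and 6.09-fold (4.03 to 9.03). LOXL3 there was at 1.54-fold (0.941 to 2.39) and 0.346-fold (0.126 to 0.762). Without TNMD its excess was thus unresolved in GDSS, and in Yorkshire it was lower than in the other stromal cells.

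Likeness of pattern was described by Pearson's correlation of log2(CPM + 10) over 24 points, the exclusive classes and states of both libraries, among 7640 genes. These points share libraries and depth, and the values are a description. MFAP5 lay nearest TNXB (0.99), LUM (0.98) and MRC2 (0.98), and FBLN5 nearest COL6A3 (0.98), SPON1 (0.98) and LUM (0.97). EFEMP1 lay nearest VEGFD, VIT and PDGFRA (each 0.98), MFAP4 nearest COL6A1 (0.97), ANGPTL1 (0.96) and CERCAM (0.95), and FBN1 nearest BNC2 (0.95), CHRDL1 (0.93) and PCSK6 (0.93). For FBLN2 the nearest were PLAC9 (0.95), TEX26 (0.93) and PDPN (0.93). LOX lay nearest COL1A2, FBN2 and EPHA3 (each 0.95), and ELN nearest PRRX2 (0.83), CDH11 (0.82) and CCN2 (0.81). DCN and LUM enter the stromal gate, as do PDGFRA and COL6A3. Among the 8 genes FBLN5 and MFAP5 were most alike (0.96), and ELN and FBLN2 least (0.13). ELN was nearer LOX (0.73) than FBN1 (0.40).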

How the data were processed

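Each library was deposited as a matrix of raw UMI counts, genes by barcodes (10x Genomics v2 kit, NextSeq-500, per the labels), and the submitters' processing notes name Cell Ranger, without a version, and R 3.5.2; the matrix headers give software version 3.1.0. Coordinates are left out because build and annotation are not given in the sources used here. Cells had 1 g of muscle per piglet as their source, with red blood cells lysed and dead cells removed on magnetic beads, per the labels.

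GDSS had 42093851 UMIs in 12286 barcodes and Yorkshire 54300953 in 14695. Barcodes with at least 500 genes and at most 10% mitochondrial UMIs were kept. Scrublet's own threshold marked 1 GDSS and 0 Yorkshire barcodes and was taken to have failed, so scores of at least 0.3 (75 and 218 barcodes) were removed, a value chosen with the scores known. Cells were assigned by how many markers of a class they held: 3 of 6 stromal, 2 of 10 myogenic, 3 of 5 myofibre, 3 of 10 endothelial, mural or macrophage, and 2 of 4 glial markers. COL1A2, COL3A1 and ERBB3, found in over 70% of cells, were left out, and cells reaching more than 1 class entered none. These minima were set after marker detection was seen. States needed 1 UMI of their gene.

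Raw counts were summed per gate and library and scaled to CPM; a ratio was counted at 1.5-fold or more with at least 100 UMIs. Cells are not replicates, and with 1 library per breed nothing was tested. Named genes are all 8 members, up to 3 pathway genes per list past 1.5-fold by size (others named were chosen after their values were seen) and the 3 nearest genes by correlation with at least 500 UMIs. Members, lists and markers were chosen with earlier results of these data known. The ratio and interval steps were tested on simulated data. Python 3.11.15, scanpy 1.11.5, scipy 1.17.1 and, for scaling factors, R 4.3.3 with edgeR 4.0.16 and DESeq2 1.42.0 were used. Alternatives covered filters, doublets, depth, gates, composition, scaling and UMI minima.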

Additional observations from a re-analysis of the deposited data

Results flagged for a closer look

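In 3 cases a state differed from the other stromal cells in opposite directions in the 2 libraries, with the intervals on both sides clear of no difference. The differences between libraries were not tested. For EFEMP1 in MME cells the log2 ratio of the state over the other stromal cells was −0.16 in GDSS and 0.59 in Yorkshire, the latter just past 1.5-fold. For MFAP5 in FMO1 cells it was −0.23 in GDSS and 0.13 in Yorkshire. For MFAP4 in PI16 cells it was 0.15 in GDSS and −0.14 in Yorkshire. Of 10 alternatives the Yorkshire value for MFAP5 in FMO1 cells changed sign in 3, to −0.21 at the lowest, and the Yorkshire value for MFAP4 in PI16 cells in 1, to 0.33. The GDSS value for EFEMP1 in MME cells changed sign in 1, to 0.14, and its Yorkshire value fell under 1.5-fold in 4, to 0.09 at the least.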

How the results depend on the processing

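Of 33 log2 ratios past 1.5-fold, 0 changed sign under the 15 alternatives run, 19 stayed past 1.5-fold in every alternative run for them, and 14 fell under it in at least 1. Among these, LOX in GDSS FMO1 cells, at −0.86, fell under 1.5-fold in 3 of 10 alternatives, to −0.38 at the least, which ends the count of 1 lower gene for that state. LOX in GDSS MME cells stayed past it in 9 of 10, with −0.57 at the least. In GDSS THBS4+KERA cells FBN1 and FBLN2 stayed past it in 8 of 10 and FBLN5 and MFAP5 in 7. The least were −0.44, −0.49, −0.36 and −0.11. Of the 5 genes lower in that state, only EFEMP1 stayed past it in all 10 in both libraries. The number of members higher in GDSS stromal cells, 1 as reported, was 4 with TMM factors, 4 with median-of-ratios size factors and 2 with equal weights per stromal state, where FBLN2 joined MFAP4. The number with their highest class level outside stromal cells in both libraries, 0 as reported, was 1 with stricter gates, 1 with classes from clusters, 1 without tendon and nerve sheath cells and 1 without TNMD cells; the member was ELN, at 3.89 CPM in GDSS stromal and 3.97 CPM in mural cells without TNMD cells. The number higher in Yorkshire was 2 when cells were thinned, with stricter gates and without TNMD cells, and otherwise 3. Over the alternatives the log2 ratio of Yorkshire over GDSS ran from 1.11 to 1.46 for FBN1, 0.81 to 1.14 for LOX, −1.11 to −0.81 for MFAP4 and 0.55 to 1.14 for ELN. The cause of these shifts was not tested. The 141 and 175 ELN UMIs of the libraries are the fewest of the 8 genes. No paired analysis was possible because each breed had 1 library and the labels give no replicate numbers.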
